A study of Mus musculus with 25 samples.

Results

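The genes described here are Nfe2l2, which encodes the transcription factor NRF2, and 9 genes for enzymes of thiol and electrophile defence: Nqo1, Gclc, Gclm, Srxn1, Txnrd1, Gsta1, Gsta2, Gstm1 and Gstm3. They were taken by gene symbol and not by a cut on measured values, though with earlier results of these data known. They make up 10 of the 24107 genes with usable values in the liver table. All 10 were among the 9372 genes tested, and the only member with a level under 1 RPKM in any library was Gsta1, which reached that level in 11 of 25 libraries.

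NRF2 is held in the cytoplasm by KEAP1, which hands it to a ubiquitin ligase for destruction. Oxidants and electrophiles modify cysteines of KEAP1, NRF2 then accumulates, pairs with small MAF proteins and binds antioxidant response elements of genes for glutathione synthesis, thioredoxin recycling, quinone reduction and conjugation. In liver these enzymes are known for their part in the handling of drugs and reactive metabolites.

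The values come from RNA sequencing of the liver of 25 C57BL/6 mice, 5 animals in each of 5 groups, after 5 weeks of parabiosis, a surgical joining that gives 2 mice a shared circulation. The old mice were 21 months old and wild type (WT) throughout. Their partner was a second old mouse (O-O), a young WT animal (O (YgWT)) or a young animal carrying the ManfHet genotype, that is heterozygous for Manf (O (Yg Het)). The young partners, aged 5 months, form the groups Yg WT and Yg Het, and all of them had been joined to an old mouse. Every animal had thus undergone parabiosis, no liver came from an unjoined mouse, and no group of young mice joined to young mice was analysed here. Manf encodes a secreted protein that responds to stress of the endoplasmic reticulum. It stood at 4.47 ± 1.11 RPKM in Yg Het livers and 15.3 ± 6.47 RPKM in Yg WT livers (SD, n = 5 each), and the groups did not overlap. Among the old livers, all WT, Manf also differed by kind of partner. It stood at 17.6 ± 2.46 RPKM in O (YgWT), 7.12 ± 1.81 in O (Yg Het) and 8.86 ± 2.53 RPKM in O-O. The part of the genotype in the difference between the young livers was not tested.

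Levels are the deposited RPKM, reads per kilobase of gene model and per megaread (M) of the library. Between 21.8 and 27.6 M reads per library lay behind the scaling, as recovered from the spacing of low values. The median number of reads per library was 31491 for Gstm1, 5748 for Gclc, 135 for Nqo1 and 20 for Gsta1, so Gsta1 was measured least precisely. Log2 differences are of RPKM + 0.5, a scale on which changes of Gsta1 and Nqo1 are understated. They are given ± SE from limma, with p-values adjusted by Benjamini-Hochberg over all 9372 genes and a threshold of 0.05.

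Alb, the gene of serum albumin, a marker of hepatocytes, was at 11144 to 52166 RPKM, and markers of muscle, pancreas and fat summed to 282 to 1183 RPKM. Much of that sum was Car3, which averaged 431 ± 67.8 RPKM in O-O and 782 ± 119.6 RPKM in Yg WT. The muscle genes Acta1 and Ckm reached 58.1 and 17.3 RPKM in the highest O (YgWT) liver, where the group medians were 0.0996 and 0 RPKM. The part of this in the comparisons with O (YgWT) was not tested. The 6 bile duct markers summed to 8.43 to 36.3 RPKM, with Krt19 up to 4.41 RPKM and Krt7 at 0.199 RPKM or below. The clock output gene Dbp differed between pair types at both ages: it averaged 14 ± 6.10 RPKM in Yg WT and 11.5 ± 7.66 RPKM in O (YgWT), but 40.7 ± 7.97 in Yg Het, 42.0 ± 5.52 in O (Yg Het) and 39.2 ± 5.58 RPKM in O-O (SD, n = 5 each). Times of collection are not given in the sources used here, and the part of this difference in the results below was not tested.

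RefSeq promoter windows (GRCm38.p6, 250 bases before to 50 bases from the transcript start) were found for 9 of the 10 genes. They were searched on both strands for TGACNNNGC, the core of the antioxidant response element, and for TGANTCAGC. The latter is a related form that need not match the former and that overlaps a binding site of AP-1. The first was in 12.4% and the second in 1.19% of 32851 windows of all genes. The windows of Nfe2l2, Gclm, Srxn1 and Txnrd1 held a match, and those of Nqo1, Gsta1, Gsta2, Gstm1 and Gstm3 held none. Elements farther from the start lie outside these windows. The windows of the 4 members that passed a test below and of Gsta1 are shown from 5′ to 3′ on the strand of the gene, with matches in capitals. They are Nfe2l2 (chr2:75704614-75704913, minus strand), Srxn1 (chr2:152105274-152105573, plus strand), Nqo1 (chr8:107403156-107403455, minus strand), Gsta1 (chr9:78230419-78230718, plus strand) and Gsta2 (chr9:78347096-78347395, minus strand).
Nfe2l2: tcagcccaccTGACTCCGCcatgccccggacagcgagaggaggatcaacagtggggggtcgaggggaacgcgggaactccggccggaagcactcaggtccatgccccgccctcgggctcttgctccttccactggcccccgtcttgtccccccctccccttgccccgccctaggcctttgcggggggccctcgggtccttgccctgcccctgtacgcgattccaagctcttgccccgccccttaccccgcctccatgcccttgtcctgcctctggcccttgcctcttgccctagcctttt
Srxn1: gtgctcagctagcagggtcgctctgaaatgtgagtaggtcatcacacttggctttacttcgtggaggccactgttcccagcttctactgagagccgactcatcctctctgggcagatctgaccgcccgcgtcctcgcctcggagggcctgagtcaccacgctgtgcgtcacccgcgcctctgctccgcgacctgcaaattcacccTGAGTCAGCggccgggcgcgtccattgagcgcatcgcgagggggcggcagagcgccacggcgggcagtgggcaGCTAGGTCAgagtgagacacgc
Nqo1: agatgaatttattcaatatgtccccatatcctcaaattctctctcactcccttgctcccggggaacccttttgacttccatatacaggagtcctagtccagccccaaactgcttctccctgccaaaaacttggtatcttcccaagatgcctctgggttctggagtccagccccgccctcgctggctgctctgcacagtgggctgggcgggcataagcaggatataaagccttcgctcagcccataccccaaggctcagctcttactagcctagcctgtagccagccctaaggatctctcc
Gsta1: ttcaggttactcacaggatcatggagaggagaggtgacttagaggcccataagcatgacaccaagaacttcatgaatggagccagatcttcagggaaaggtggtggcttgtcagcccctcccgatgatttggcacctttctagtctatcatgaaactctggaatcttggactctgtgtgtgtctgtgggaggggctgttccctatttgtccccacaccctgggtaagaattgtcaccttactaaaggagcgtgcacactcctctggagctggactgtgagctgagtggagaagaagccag
Gsta2: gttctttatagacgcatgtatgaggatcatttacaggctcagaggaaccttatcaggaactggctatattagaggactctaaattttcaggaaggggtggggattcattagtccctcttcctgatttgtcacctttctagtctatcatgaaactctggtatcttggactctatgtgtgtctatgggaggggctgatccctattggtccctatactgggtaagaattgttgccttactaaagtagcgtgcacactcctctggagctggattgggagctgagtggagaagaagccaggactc
In Srxn1 the element TGAGTCAGC began 45 bases before the start, and a match of TGACNNNGC lay on the opposite strand within the transcribed part of the window. In Nfe2l2 the match began 240 bases before the start. Gsta1 and Gsta2, neighbours on chromosome 9, had 77.3% of the bases of the window in common, and their transcripts were 97.2% identical over 870 aligned bases. How reads with several matching genes were assigned is not given in the sources used here, so the split of reads between Gsta1, Gsta2 and the predicted genes next to them is uncertain. Gstm1 and Gstm3, on chromosome 3, were 89.8% identical over 1125 aligned bases.

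The genes differed widely in level. Gstm1, a mu class transferase, averaged 843 RPKM over all 25 libraries, and Gclc, the catalytic subunit of glutamate cysteine ligase, averaged 63.1 RPKM. Txnrd1 (cytosolic thioredoxin reductase), Gstm3 (a mu class transferase), Gsta2 (an alpha class transferase) and Gclm (the modifier subunit of the ligase) lay between 23.1 and 29.2 RPKM. Nfe2l2 averaged 14.4 RPKM, Srxn1, which encodes sulfiredoxin, the enzyme that repairs overoxidized peroxiredoxins, 9.49 RPKM, Nqo1, a quinone reductase, 3.52 RPKM, and Gsta1 1.37 RPKM. Gclm was the steadiest, with a highest library 1.41 times the lowest, and Gsta1 the least steady, at 27.6 times.

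**Figure D1:**
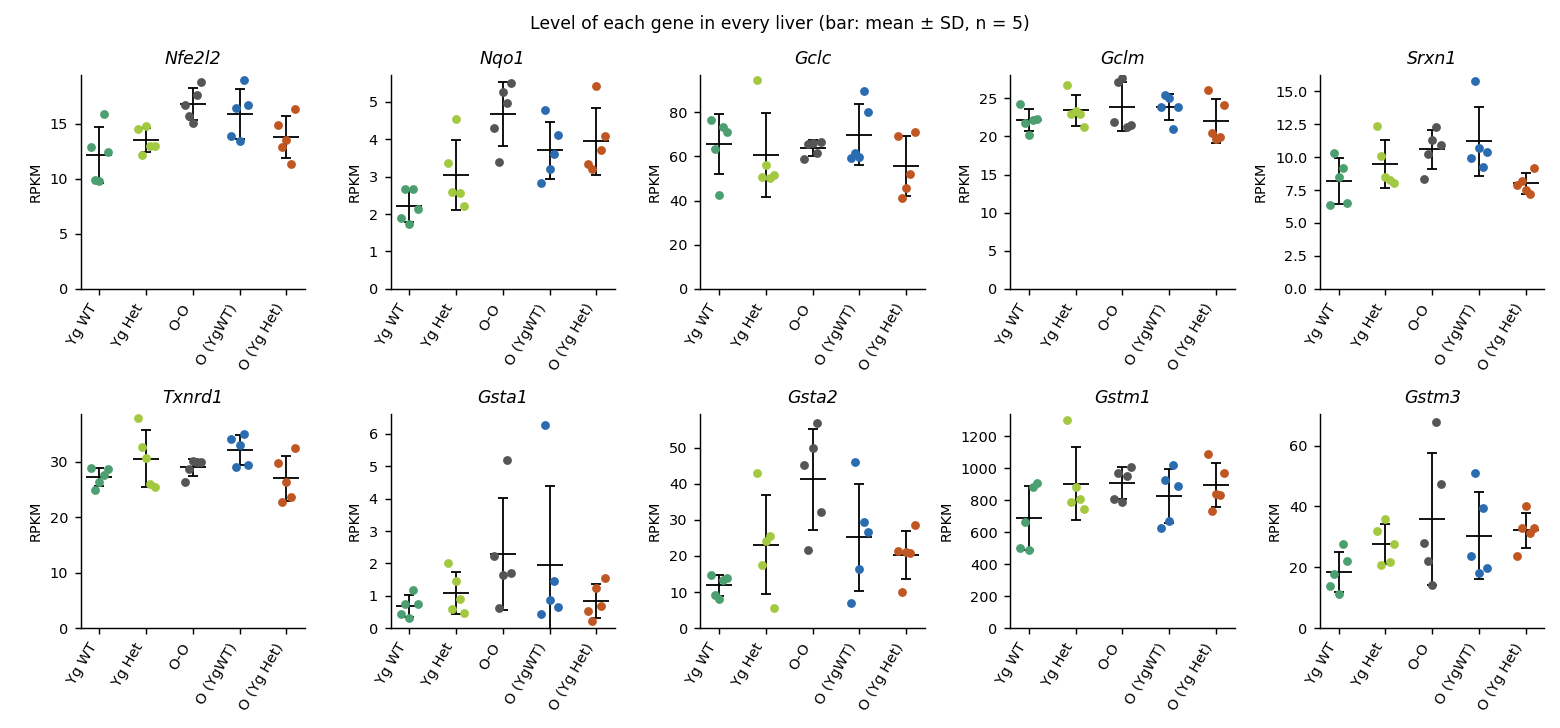
RPKM of each of the 10 genes (vertical axes, linear from 0) in every liver, by group (horizontal axes); points are livers, black bars the mean ± SD (n = 5, ending at the axis where they would pass 0). Nqo1 and Gsta2 in O-O lie above every Yg WT liver, and Srxn1 in O (Yg Het) lies below every O (YgWT) liver.

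Old livers with an old partner were compared with young WT livers first. Nqo1, Gsta2 and Nfe2l2 were higher in O-O than in Yg WT, so 3 of 10 genes rose and 0 fell, where 9.11% of all tested genes rose. The ratio of the means was 2.11 for Nqo1, 3.48 for Gsta2 and 1.38 for Nfe2l2. The genes for glutathione synthesis, Gclc and Gclm, and Txnrd1 had ratios between 0.975 and 1.08 and did not pass. Without Yg WT replicate 3, the lowest young liver in most of these genes, only Nqo1 passed (1 of 10). That omission also lowered the calls over all genes, from 854 higher and 163 lower to 387 higher and 80 lower. These groups differ in age and also in partner, since the young WT mice had been joined to old ones.

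Nqo1 (chromosome 8, 107388225 to 107403206, mm10) read 4.29, 3.39, 5.27, 4.98 and 5.50 RPKM in O-O. In Yg WT it read 1.89, 2.68, 1.74, 2.66 and 2.13 RPKM. Every O-O liver was above every Yg WT liver, which was the case for 6.16% of all tested genes. The log2 difference was 0.93 ± 0.17 (95% interval 0.59 to 1.27, limma adjusted p = 0.00281).

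Gsta2 (chromosome 9, 78331018 to 78355788) read 45.2, 21.7, 49.9, 56.8 and 32.3 RPKM in O-O. In Yg WT it read 14.6, 9.25, 8.02, 13.3 and 13.9 RPKM. The lowest O-O liver, replicate 2, lay above the highest Yg WT liver, and the O-O livers were spread far more widely than the young ones. The log2 difference was 1.72 ± 0.44 (interval 0.80 to 2.64, limma adjusted p = 0.0179). Limma's adjusted p was 0.0524 without Yg WT replicate 3 and 0.0599 without O-O replicate 4. The near-identical Gsta1 was at 2.28 ± 1.73 RPKM in O-O and 0.679 ± 0.336 RPKM in Yg WT (SD, n = 5 each), with overlapping groups, a log2 difference of 1.08 ± 0.44 and a limma adjusted p = 0.11, or 0.0454 without O-O replicate 2.

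Nfe2l2 (chromosome 2, 75675513 to 75704641) read 16.7, 15.7, 15.1, 17.6 and 18.8 RPKM in O-O. In Yg WT it read 12.9, 9.84, 9.82, 15.9 and 12.4 RPKM. Yg WT replicate 4 reached into the range of the old livers and the other young livers lay below it. The log2 difference was 0.47 ± 0.12 (interval 0.22 to 0.71, limma adjusted p = 0.0156). The call was lost without Yg WT replicate 3 (adjusted p = 0.0537), with only these groups in the limma model (0.0549) and after median-of-ratios scaling (0.35, adjusted p = 0.0557). That scaling moved the split of all calls in this comparison from 854 higher and 163 lower to 312 higher and 525 lower. Scaling over tested genes alone gave 383 higher and 388 lower, with 3 members still called, Nfe2l2 among them.

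Of the other genes that did not pass, Gclc alone had a log2 difference below 0. Gstm3 was at 0.80 ± 0.33 (limma adjusted p = 0.119), with O-O livers from 14.2 to 67.6 RPKM around a median of 28.1, and at 1.07 (adjusted p = 0.0375) without O-O replicate 3. Gstm1 was at 0.44 ± 0.18 (0.116 by limma) and Srxn1 at 0.37 ± 0.14 (0.0956 by limma). Gclm was at 0.10 ± 0.09 and Txnrd1 at 0.09 ± 0.10, with intervals from -0.09 to 0.29 and from -0.12 to 0.29. Gclc stood at -0.01 ± 0.18 (interval -0.39 to 0.37), with 63.8 ± 3.45 RPKM in O-O and 65.4 ± 13.6 RPKM in Yg WT. Over the 10 genes the median log2 difference was 0.45, and 0.08 over all tested genes.

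Old livers with a young WT partner were then set against the same Yg WT livers. Here both groups came from the same kind of pair and Dbp was low in both. All 10 genes had log2 differences above 0, with a median of 0.41 against 0.08 over all tested genes, and 0 of 10 passed, where 0.117% of all tested genes passed in either direction. At an unadjusted p under 0.05 limma placed 4 genes, Nqo1, Nfe2l2, Srxn1 and Txnrd1, and 12.7% of all tested genes.

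Nqo1 read 2.84, 4.78, 3.20, 3.61 and 4.12 RPKM in O (YgWT), all above the Yg WT livers given above. The log2 difference was 0.63 ± 0.17 (interval 0.28 to 0.97, limma adjusted p = 0.129). Txnrd1 averaged 32.2 ± 2.72 RPKM against 27.3 ± 1.64 RPKM, and its lowest O (YgWT) liver at 29.0 RPKM was just above the highest young one at 28.8. Its log2 difference was 0.23 ± 0.10 (limma adjusted p = 0.35). Groups with every old liver higher were found for 2.61% of all tested genes. Nfe2l2 was at 0.38 ± 0.12 (limma adjusted p = 0.195) and Srxn1 at 0.43 ± 0.14 (0.223 by limma), each with overlapping groups. Gsta2, at 0.85 ± 0.44, read 6.96, 46.1, 16.5, 29.5 and 26.5 RPKM in O (YgWT), so that replicate 1 lay below the whole of Yg WT.

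Old livers with a heterozygous partner were set against Yg Het livers in the same way. Of the 10 genes 0 passed, where 5.55% of all tested genes passed, and 0 had an unadjusted p under 0.05 by limma, where 30.3% of all tested genes did. The median log2 difference was -0.05 against -0.13 over all tested genes. Nqo1 was at 0.34 ± 0.17 (limma adjusted p = 0.167), with 3.95 ± 0.897 RPKM in O (Yg Het) and 3.05 ± 0.937 RPKM in Yg Het (SD, n = 5 each). Nfe2l2 was at 0.02 ± 0.12 and Gsta2 at 0.00 ± 0.44. The interval of Gsta2 ran from -0.91 to 0.92 and so included sizable changes in either direction. The 3 age comparisons share the Yg WT livers between the first and the second, and the values are set side by side only.

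Among old livers, the kind of young partner was compared next. Srxn1 was lower in O (Yg Het) than in O (YgWT), so 1 of 10 genes fell and 0 rose, where 29.6% of all tested genes fell. The share of members called was thus below that of all genes, and the median log2 difference of the 10 genes, -0.16, lay beside -0.14 for all tested genes. After median-of-ratios scaling, which moved the median of all genes to 0.04 and the split of calls from 288 higher and 2777 lower to 1163 higher and 724 lower, Srxn1 no longer passed. The same scaling over tested genes alone gave 837 higher and 893 lower, and Srxn1 did not pass there either.

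Srxn1 (chromosome 2, 152105516 to 152111376) read 7.86, 8.21, 7.50, 7.22 and 9.21 RPKM in O (Yg Het). In O (YgWT) it read 9.95, 15.8, 10.7, 9.25 and 10.4 RPKM. All O (Yg Het) livers were below all O (YgWT) livers, as for 13.7% of tested genes, but the highest and the lowest value of the facing groups were 9.21 and 9.25 RPKM. The ratio of the means was 0.713 and the log2 difference -0.44 ± 0.14 (interval -0.74 to -0.15, limma adjusted p = 0.0224). It was -0.24 (adjusted p = 0.191) after scaling, -0.32 (0.0827) without O (YgWT) replicate 2 and -0.41 (0.0598) without O (Yg Het) replicate 4, all by limma. Most marker lists moved in the same comparison. Of general hepatocyte markers 3 of 13 rose, among them Alb, with 42783 ± 11037 RPKM in O (Yg Het) and 20749 ± 8537 RPKM in O (YgWT). Of pericentral markers 3 of 10 and of targets of the drug receptors CAR and PXR 4 of 9 rose, and 1 of 10 periportal markers fell. Markers of Kupffer cells and macrophages summed to 70 to 209 RPKM in O (Yg Het) against 226 to 419 RPKM in O (YgWT), with 9 of 10 lower and none undetected. Sinusoidal endothelial markers fell in 6 of 7 cases (sums of 20.5 to 46.9 against 49.2 to 62.4 RPKM) and stellate cell and fibroblast markers in 6 of 7 (34.1 to 81.2 against 88.3 to 134 RPKM). Blood and lymphoid markers fell in 4 of 7 cases (37 to 72.4 against 77.1 to 148 RPKM), as did the 1 tested bile duct marker, Spp1, and of 13 clock output genes 8 rose and 3 fell. In whole tissue, fewer cells of a type and less RNA per cell cannot be told apart, and the part of these lists in the difference of Srxn1 was not tested.

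Txnrd1 fell short of the threshold in the same comparison, with 27.0 ± 4.08 RPKM in O (Yg Het) and 32.2 ± 2.72 RPKM in O (YgWT). Its log2 difference was -0.26 ± 0.10 (limma adjusted p = 0.0536), and -0.32 (0.0151 by limma) without O (Yg Het) replicate 5, the highest of its group. Txnrd1 passed in 3 of 10 omissions of a library (limma adjusted p 0.0151 to 0.151). It passed in 0 of the 8 other settings, scaling among them, which ran from -0.26 to -0.05 (limma adjusted p 0.0533 to 0.737). Gclc was at -0.34 ± 0.18 (limma adjusted p = 0.158), with livers from 41.1 to 71.1 RPKM against 59.1 to 89.4 RPKM. Nqo1 was at 0.08 ± 0.17 and Gstm1 at 0.12 ± 0.18, with intervals from -0.26 to 0.42 and from -0.25 to 0.50.

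Against O-O, the old livers with a heterozygous partner had 0 of 10 genes called, where 23.6% of all tested genes passed. Nearly all of those were lower (85 higher and 2126 lower, 647 and 512 after scaling, or 331 and 604 with scaling over tested genes). At an unadjusted p under 0.05 limma placed 4 of 10, Srxn1, Nfe2l2, Gsta2 and Gsta1, near the share of 38.8% among all tested genes. The log2 difference was -0.38 ± 0.14 for Srxn1 (limma adjusted p = 0.0573), -0.28 ± 0.12 for Nfe2l2 (0.0822 by limma) and -0.99 ± 0.44 for Gsta2 (0.101 by limma). Gsta2 read 21.4, 10, 21.1, 20.7 and 28.5 RPKM in O (Yg Het), of which 4 lay below the lowest O-O liver. With only these groups in the limma model Srxn1 (adjusted p = 0.035) and Gsta2 (0.0455) passed. Srxn1 also passed without O-O replicate 1, Gsta1 without O-O replicate 2, and Srxn1 with Nfe2l2 without O (Yg Het) replicate 5. Over the 8 settings other than omissions, scaling among them, Srxn1 and Gsta2 passed in 1 and Nfe2l2 in 0. In these Srxn1 ran from -0.39 to -0.17 (limma adjusted p up to 0.415). Nfe2l2 ran from -0.29 to -0.07 (up to 0.744) and Gsta2 from -1.01 to -0.78 (up to 0.24).

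Between O (YgWT) and O-O, 0 of 10 genes passed, where 1.17% of all tested genes passed, and 0 had an unadjusted p under 0.05 by limma, where 16.0% of all tested genes did. The largest differences were those of Gsta2, -0.87 ± 0.44 (limma adjusted p = 0.338), and Nqo1, -0.30 ± 0.17 (0.378 by limma). Gclm was at 0.00 ± 0.09, with an interval from -0.19 to 0.19.

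Between the young groups, 0 of 10 genes passed as well, where 5.13% of all tested genes passed. The split was 349 higher and 132 lower, 218 and 210 after scaling, or 215 and 234 with scaling over tested genes. Nqo1 and Gstm1 (2 of 10) had an unadjusted p under 0.05 by limma, near the share of 21.7% among all tested genes. Of the 10 log2 differences 9 lay above 0, with a median of 0.28 against 0.05 over all tested genes. Nqo1 was at 0.36 ± 0.17 (limma adjusted p = 0.204), reading 3.36, 2.59, 4.55, 2.55 and 2.21 RPKM in Yg Het. Gstm1 was at 0.41 ± 0.18 (0.191 by limma), and Gsta2 at 0.72 ± 0.44 (0.365 by limma), reading 43.1, 17.4, 24.2, 25.4 and 5.55 RPKM in Yg Het. Nfe2l2 in Yg Het read 14.5, 12.2, 14.8, 13 and 13 RPKM, all within the range of Yg WT. Srxn1 read 12.4, 10.1, 8.52, 8.29 and 8.03 RPKM in Yg Het and 6.34, 10.3, 8.52, 9.21 and 6.51 RPKM in Yg WT, so the groups overlapped.

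The interaction tested whether the difference between heterozygous and WT pairs was the same in old as in young livers. All 10 estimates lay below 0, with a median of -0.38 against -0.21 over all tested genes, and 0 of 10 passed, where 0.0107% of all tested genes (1 gene) passed. At an unadjusted p under 0.05 limma placed 3 of 10, Srxn1, Txnrd1 and Nfe2l2, near the share of 31.3% among all tested genes. Srxn1 was at -0.65 ± 0.20 (interval -1.07 to -0.23, limma adjusted p = 0.0785) and Txnrd1 at -0.40 ± 0.14 (interval -0.70 to -0.11, 0.0913 by limma). Srxn1 passed without Yg Het replicate 5 (limma adjusted p = 0.0426), O (YgWT) replicate 4 (0.0361) or O (Yg Het) replicate 5 (0.0467), and Txnrd1 without the first (0.0429) or the last of these (0.0434). The number of calls over all genes was itself unsteady, at 915, 1231 and 680 without these 3 libraries in the same order. Srxn1 passed in 3 of 20 omissions and Txnrd1 in 2, and each passed in 0 of the 8 other settings, scaling among them. There Srxn1 ran from -0.68 to -0.40 (limma adjusted p up to 0.555) and Txnrd1 from -0.41 to -0.14 (up to 0.782). Median-of-ratios scaling moved the median of all tested genes from -0.21 to 0.03.

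In order of mean level, Nqo1 ran from Yg WT (2.22 ± 0.434 RPKM) through Yg Het, O (YgWT) and O (Yg Het) to O-O (4.68 ± 0.854 RPKM), and of the comparisons run only O-O against Yg WT passed the test. Neighbours in this order, such as O (YgWT) at 3.71 ± 0.765 and O (Yg Het) at 3.95 ± 0.897 RPKM, did not differ beyond their spread. Nfe2l2 ran from Yg WT (12.2 ± 2.53) through Yg Het (13.5 ± 1.08), O (Yg Het) (13.8 ± 1.88) and O (YgWT) (15.9 ± 2.29) to O-O (16.8 ± 1.46 RPKM). In O (YgWT) it read 13.9, 16.4, 13.4, 19.0 and 16.7 RPKM and in O (Yg Het) 14.9, 12.9, 13.5, 11.3 and 16.3 RPKM. Gsta2 ran from 11.8 ± 2.98 in Yg WT to 41.2 ± 14.1 RPKM in O-O, with O (Yg Het) at 20.3 ± 6.62, Yg Het at 23.1 ± 13.7 and O (YgWT) at 25.1 ± 14.7 RPKM. Srxn1 was lowest in O (Yg Het) at 8 ± 0.772 and Yg WT at 8.18 ± 1.72, and highest in O (YgWT) at 11.2 ± 2.59 RPKM (SD, n = 5 each).

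The transferases Gsta1, Gsta2 and Gstm3 varied more between livers of the same group than the other members, Gstm1 among them. The SD within groups was 0.76 for Gsta2, 0.75 for Gsta1 and 0.57 for Gstm3 on the log2 scale, larger than in 98.9%, 98.9% and 97.6% of all tested genes. It was 0.31 for Gclc, 0.30 for Gstm1 and 0.28 for Nqo1. For Gclm it was 0.14, below the median of 0.16 over all tested genes. Single livers tended to be high or low in many of these genes at a time. Yg WT replicate 3 was the lowest of its group in 8 of 10 genes, and Yg Het replicate 1 was the highest of its group in 7. Yg Het replicate 5 was the lowest in 7, O (YgWT) replicate 2 the highest in 6 and O (Yg Het) replicate 2 the lowest in 6. O (Yg Het) replicate 5 was the highest in 6. In O-O no replicate was the highest or the lowest in more than 4 genes. The members are measured in the same libraries and share sequence in the case of the transferases, so these counts are a description. How many of all tested genes were highest or lowest in these livers was not counted. The part of library-wide shifts in level was not tested.

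**Figure D2:**
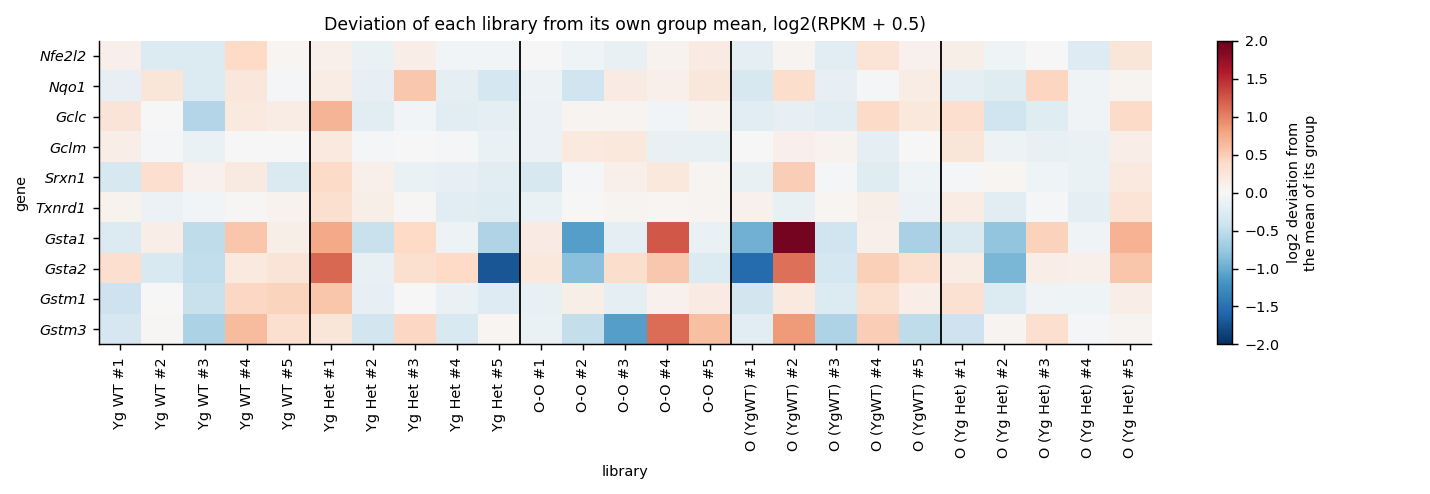
Deviation of every library (columns, grouped) from the mean of its own group in log2(RPKM + 0.5) for the 10 genes (rows), red above and blue below. The transferases Gsta1, Gsta2 and Gstm3 have the deepest colours, and Yg Het replicates 1 and 5 stand on opposite sides in most rows.

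Other genes of the pathway were read from lists of 91 genes, of which 81 were tested. In O-O against Yg WT 6 rose and 2 fell, in O (YgWT) against Yg WT 1 rose, and in O (Yg Het) against Yg Het 1 rose and 8 fell. Between O (Yg Het) and O (YgWT) 4 rose and 17 fell, against O-O 11 fell, in Yg Het against Yg WT 4 rose, and between O (YgWT) and O-O none passed. These counts can be read beside the shares of all genes given above, 9.11% higher in O-O against Yg WT and 29.6% lower in O (Yg Het) against O (YgWT). Of all 9372 tested genes, 163 fell in the first of these comparisons and 288 rose in the second. In O (Yg Het), 85 rose and 2126 fell against O-O, and 85 rose and 435 fell against Yg Het. In Yg Het against Yg WT 349 rose and 132 fell. In O (YgWT), 11 rose and 0 fell against Yg WT, and 70 rose and 40 fell against O-O.

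Of 11 regulators and partners of NRF2, 0 passed in O-O against Yg WT. In O (Yg Het) against O (YgWT) 5 fell and 1 rose. Maff, a small MAF partner, rose from 1.02 ± 0.691 to 2.22 ± 0.47 RPKM (0.94 ± 0.26, limma adjusted p = 0.0101). Sqstm1, the autophagy adaptor p62 that binds KEAP1, fell from 94.2 ± 8.38 to 69.1 ± 14.8 RPKM (-0.46 ± 0.11, limma adjusted p = 0.00459). Scaling removed this call (0.0825 by limma), but it held with scaling over tested genes alone and in 10 of 10 omissions of a library. Nfe2l1, a relative of NRF2, was at -0.30 ± 0.10 (limma adjusted p = 0.0286), and this call too was lost after scaling, and in 5 of 10 omissions of a library. Against O-O, Sqstm1 fell by 0.32 ± 0.11, and Btrc and Rbx1, of the ubiquitin ligases that act on NRF2, by 0.24 ± 0.08 and 0.20 ± 0.07. Against Yg Het, Btrc and Rbx1 fell by 0.27 ± 0.08 and 0.25 ± 0.07. These 5 calls were lost after scaling, with Rbx1 against O-O turning to 0.01, and held in 2 to 5 of 10 omissions of a library.

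Of 19 tested further enzymes and transporters linked to NRF2, Cbr1, a carbonyl reductase, rose in O-O against Yg WT (0.57 ± 0.18, limma adjusted p = 0.0426) and Taldo1, of the pentose phosphate pathway, fell by 0.26 ± 0.08. Each of these calls held in 3 of 10 omissions of a library, with limma adjusted p-values up to 0.133 and 0.0938. In the 8 other settings Cbr1 passed in 3, and was lost after scaling (0.114 by limma), and Taldo1 passed in 6. Cbr1 also rose in O (Yg Het) against O (YgWT) (0.48 ± 0.18, limma adjusted p = 0.0395), a call that held in 4 of 10 omissions. Hmox1, the heme oxygenase that NRF2 induces and macrophages express strongly, was lower with a heterozygous partner. It averaged 7.81 ± 3.41 RPKM in O (Yg Het), 17.4 ± 5.49 RPKM in O (YgWT) and 21.7 ± 13.2 RPKM in O-O (SD, n = 5 each). The log2 difference was -1.16 ± 0.29 against O (YgWT) (limma adjusted p = 0.00574) and -1.37 ± 0.29 against O-O (0.00347 by limma), and both held after scaling. Kupffer cell and macrophage markers moved the same way, with medians of -1.06 and -1.24 over 10 genes, and their part in the values of Hmox1 was not tested. G6pdx, the first enzyme of the pentose phosphate pathway, fell by 0.48 ± 0.16 and 0.65 ± 0.16 in the same comparisons, the first lost after scaling and in 2 of 10 omissions of a library (limma adjusted p up to 0.113) and the second when only the groups compared were fitted (0.0587 by limma).

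Of 14 tested genes of glutathione synthesis and turnover, Gpx3, the secreted glutathione peroxidase, was higher in old livers in all 3 age comparisons. It averaged 5.24 ± 1.19 RPKM in O-O, 5.78 ± 1.47 RPKM in O (YgWT) and 3.24 ± 0.898 RPKM in O (Yg Het), against 2.00 ± 0.42 RPKM in Yg WT and 1.78 ± 0.191 RPKM in Yg Het. The log2 differences were 1.19 ± 0.17 (limma adjusted p = 0.000691), 1.31 ± 0.17 (0.000723 by limma) and 0.69 ± 0.17 (0.0318 by limma). The first 2 were called in every alternative run, and the last was lost in 5 of 10 omissions of a library, with the replicate block (0.0504 by limma), with no filter on low values (0.0502) and with only the groups compared (0.0523). Gpx3 was also lower in O (Yg Het) than in O (YgWT), by -0.75 ± 0.17 (limma adjusted p = 0.00318), and in the same comparison Cbs, of cysteine synthesis, fell by 0.66 ± 0.16 and Lap3, a leucine aminopeptidase, by 0.49 ± 0.10. Against O-O the 3 genes fell by 0.63 ± 0.17, 0.48 ± 0.16 and 0.31 ± 0.10, calls that scaling removed and that held in 10, 3 and 5 of 10 omissions. Chac1, which degrades glutathione, fell in O (Yg Het) against Yg Het (-1.12 ± 0.32, limma adjusted p = 0.043), a call lost after scaling (0.125), with the replicate block (0.0546) and in 7 of 10 omissions.

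Of 19 tested thioredoxin and peroxiredoxin genes, 0 passed in O-O against Yg WT, the lowest limma adjusted p being that of Txnrd2 (0.26 ± 0.09, 0.0664). Glrx5, a mitochondrial glutaredoxin, was higher in Yg Het than in Yg WT (0.44 ± 0.09, limma adjusted p = 0.0081), with 44.0 ± 5.13 RPKM against 32.1 ± 2.37 RPKM. Txn1, the cytosolic thioredoxin that Txnrd1 reduces, was at -0.23 ± 0.07 in O (Yg Het) against O (YgWT) (limma adjusted p = 0.0112), and at -0.02 after scaling. It also fell by 0.19 ± 0.07 against O-O, a sign that turned after scaling. Txnrd3, a thioredoxin reductase, rose in O (Yg Het) against O (YgWT) (0.32 ± 0.10) and in Yg Het against Yg WT (0.38 ± 0.10), calls that held in 7 and 3 of 10 omissions, the second lost after scaling (0.0505 by limma). In O (Yg Het) against Yg Het, Prdx5, a peroxiredoxin, fell by 0.36 ± 0.08, Glrx5 by 0.32 ± 0.09 and Txn1 by 0.28 ± 0.07, calls that scaling removed and that held in 7, 3 and 5 of 10 omissions.

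**Figure D3:**
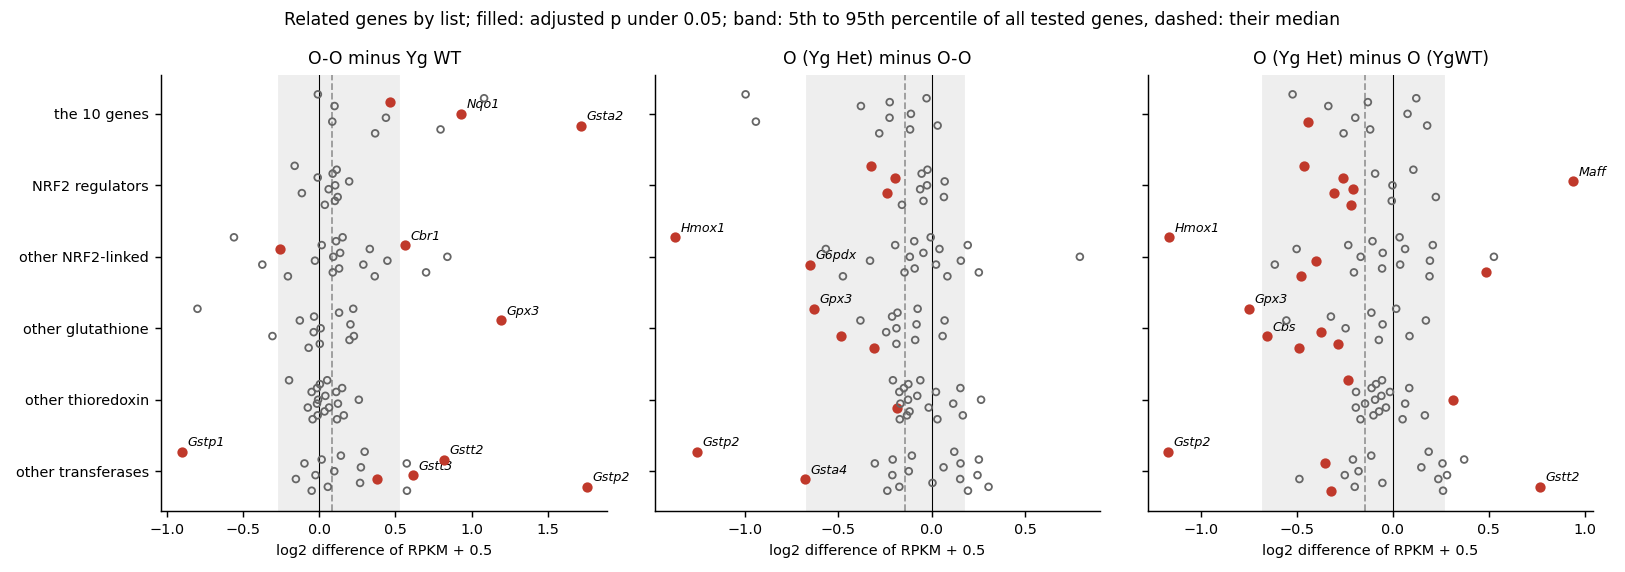
Log2 difference of RPKM + 0.5 (horizontal axes) of the 10 genes and of 5 lists of related genes (rows; each point is a gene) in 3 comparisons (panels). Filled points passed limma's test, the grey band spans the 5th to 95th percentile and the dashed line the median of all tested genes; the highest points in O-O minus Yg WT are Gstp2, Gsta2, Gpx3, Gsta1 (open, not passing) and Nqo1.

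Of 18 other tested glutathione transferases, 4 rose and 1 fell in O-O against Yg WT, and 0 passed in O (YgWT) against Yg WT. Gstp2, a pi class gene, rose from 4.25 ± 1.88 to 16 ± 8.09 RPKM (1.75 ± 0.42, limma adjusted p = 0.0119), while its abundant neighbour Gstp1 fell from 1162 ± 369 to 601 ± 103 RPKM (-0.90 ± 0.25, 0.0261 by limma). Gstp2 was also lower in O (Yg Het), at 5.85 ± 1.19 RPKM, than in O-O (-1.25 ± 0.42, limma adjusted p = 0.0336) and in O (YgWT), at 16.3 ± 10.2 RPKM (-1.17 ± 0.42, 0.0359 by limma), calls lost after scaling (0.0991 and 0.0994) and held in 4 and 3 of 10 omissions of a library. Gstp1 also fell in O (Yg Het) against Yg Het, from 1490.4 ± 218 to 519 ± 229 RPKM (-1.62 ± 0.25, limma adjusted p = 0.00422). Without a library the call of Gstp1 in O-O against Yg WT was lost in 5 of 10 cases (limma adjusted p up to 0.0666), and that of Gstp2 in none. Reads of the pi class copies may be split between them, so these values are uncertain. Gstt2, a theta class gene, was higher in 3 comparisons in which Dbp was higher too: in O-O against Yg WT (0.82 ± 0.23), in Yg Het against Yg WT (0.85 ± 0.23) and in O (Yg Het) against O (YgWT) (0.77 ± 0.23), with limma adjusted p-values of 0.0272, 0.0342 and 0.0155. These calls held in 6, 5 and 9 of 10 omissions of a library. The first was lost after scaling (0.0518 by limma) and the second with no filter on low values (0.0698 by limma). Both were lost with only the groups compared (0.0616 and 0.0563 by limma). The part of the clock in these differences of Gstt2 was not tested. Gsto1, of the omega class, rose in Yg Het against Yg WT (0.37 ± 0.09, limma adjusted p = 0.0223), a call that held in 4 of 10 omissions. Gsta4, of the alpha class, fell by 0.68 ± 0.20 in O (Yg Het) against O-O, and Mgst1, a microsomal transferase, by 0.35 ± 0.11 against O (YgWT) and 0.40 ± 0.11 against Yg Het. Scaling removed these 3 calls, which held in 10, 6 and 2 of 10 omissions. The 24 transferase genes, members included, summed to 3541 ± 110.5 RPKM in O-O and 3851 ± 600.4 RPKM in Yg WT, so the rises of Gsta2 and Gstp2 took place in genes of small share.

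**Figure D4:**
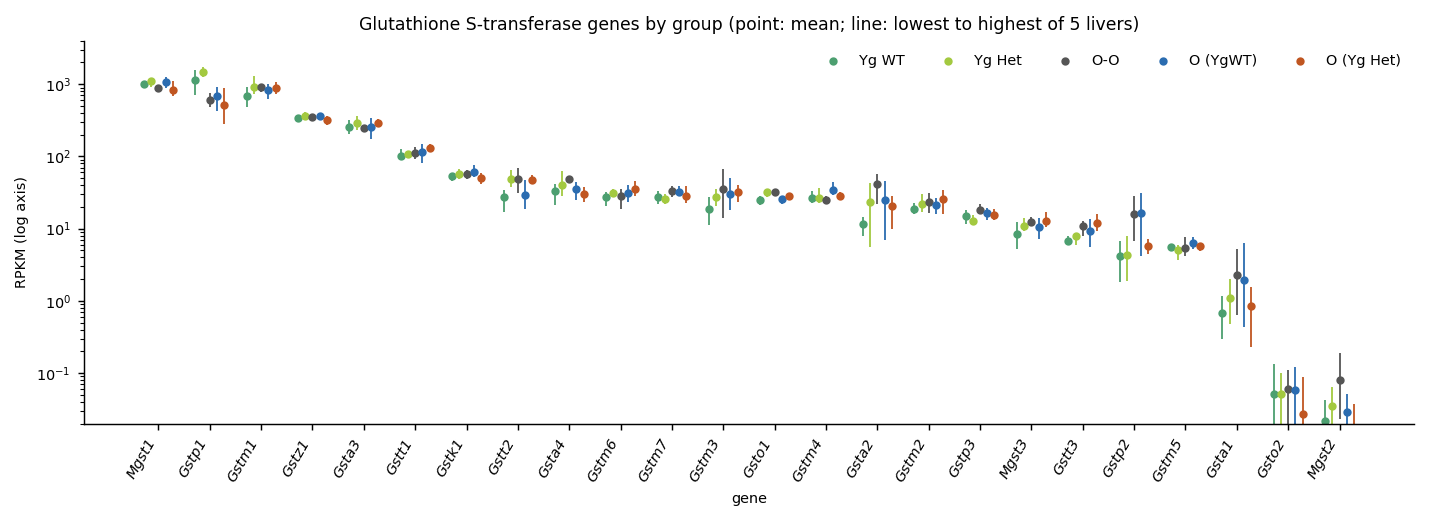
RPKM (vertical axis, log scale) of 24 glutathione transferase genes ordered by mean level (horizontal axis), by group in colour; points are means and lines run from the lowest to the highest of 5 livers. Mgst1, Gstp1 and Gstm1 are the most abundant, and the lines of Gsta2 and Gstp2 in O-O lie wholly above those in Yg WT.

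Genes outside these lists with the most similar order of group means were found by the mean absolute difference of log2 group means, each centred on its own mean over the 5 groups. For Nqo1 they were Dact2 (0.0647) and S1pr5 (0.0717), for Nfe2l2 Ccdc122 (0.0211) and Wdr34 (0.0219). For Srxn1 they were Il22ra1 (0.0239) and Ggt6 (0.0302), and for Gsta2 Emp2 (0.161) and Id1 (0.178). With 5 group means and 9372 genes such likeness is a description only.

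Marker lists also moved in the comparison that held 3 of the 4 calls. In O-O against Yg WT, 5 of 7 tested markers of stellate cells and fibroblasts rose, with sums of 94.5 to 119.7 RPKM in O-O against 51.1 to 82.0 RPKM in Yg WT. Markers of periportal hepatocytes rose in 3 of 10 cases and summed to 3399.9 to 4771 RPKM against 3059 to 4371 RPKM. General hepatocyte markers passed in 0 of 13 cases, those of Kupffer cells and macrophages in 0 of 10 and those of sinusoidal endothelium in 0 of 7, and 1 of 10 pericentral markers fell. Of blood and lymphoid markers 2 of 7 rose, with sums of 56.8 to 155 RPKM in O-O against 66.4 to 137 RPKM in Yg WT. The list of muscle, pancreas and fat markers fell in both of its tested genes, Cela1 and Car3, with sums of 328 to 491 RPKM against 690.2 to 932 RPKM. Of 13 tested clock output genes 7 rose and 3 fell, and of 9 CAR and PXR targets 1 rose. No periportal or stellate marker was undetected, and the part of these lists in the differences of Nqo1, Gsta2 and Nfe2l2 was not tested. In O (YgWT) against Yg WT, where 0 of 13 clock genes passed, Nqo1 stood at 0.63, Gsta2 at 0.85 and Nfe2l2 at 0.38, in place of 0.93, 1.72 and 0.47, and none of the 3 passed (limma adjusted p = 0.129, 0.421 and 0.195).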

How the data were processed

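Liver RNA of 25 mice was profiled with TruSeq Stranded mRNA libraries from flash frozen tissue extracted with Trizol, per the labels' protocols. The submitters' processing notes name STAR 2.4.2a, HTSeq and the mm10 build. The authors deposited RPKM values, in a single table of 60354 rows, and groups were taken from the labels. The strand setting, the read total behind RPKM and the handling of reads that match several genes are not given in the sources used here.

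Rows with no value (36222), with a date number for a symbol (24) or with infinite values (1) were left out, which left 24107 genes. Genes reaching 1 RPKM in 5 or more libraries (9372) were fitted as log2(RPKM + 0.5) with limma 3.58.1 (R 4.3.3, intensity trend, a model of 5 groups, 20 residual degrees of freedom), tested on simulated data, and adjusted by Benjamini-Hochberg at 0.05. RPKM is no count, so no count model was used. Reads were recovered from the spacing of low values with GENCODE M21 lengths; 77.8% of 9283 tested genes with a length were whole within 0.02 reads in all 25 libraries. For Txnrd1 the length of 3417 bases that gave whole reads replaced the exon union of 7086. The 95% intervals are limma's and rest on the spread between livers.

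All 10 genes are named. Of each related list, at most the 3 passing genes with the largest difference per comparison, or where none passed at most the gene with the lowest p, are named. The members, lists, comparisons and tests were chosen with earlier results of these data known. Alternatives were the added constant, the filter, scaling, the libraries in the model, the replicate number as a block and each library left out; scaling over tested genes alone was added after seeing the data. Promoter windows are from RefSeq and were read with Python 3.11.15 and Biopython 1.88. Gene positions are from GENCODE M21.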

Additional observations from a re-analysis of the deposited data

Results flagged for a closer look

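Of 50 sets of 5 livers (10 genes in 5 groups), 4 held a liver that stood apart, with a gap to the next liver above 0.71 of the range of its group; chance alone gives about 1 in 20. In Yg Het replicate 1, Gclc read 94.4 RPKM, with the next liver at 56.3, and Gstm1 read 1299 RPKM, with the next at 882. In O (YgWT) replicate 2, Srxn1 read 15.8 RPKM, with the next at 10.7, and Gsta1 read 6.28 RPKM, with the next at 1.44.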

How the results depend on the processing

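For the 10 genes in 7 comparisons and the interaction (80 results), 1524 alternatives were run: 1499 kept the side of the threshold, 9 lost a call, 16 gained a call and none turned a called sign. Most of the 80 results were not called at first, so most of the 1499 only stayed uncalled. In 68 alternatives the sign differed with no call on either side. The 9 losses fell on the calls of Srxn1, Nfe2l2 and Gsta2. Nqo1 in O-O against Yg WT passed in all 10 single-library omissions and in the 7 other alternatives in which it was tested. The replicate number as a block gave 3 members called there, 1 (Srxn1) in O (Yg Het) against O (YgWT) and none elsewhere, as without it. The labels do not say that a number marks a pair of joined mice, and same-numbered livers correlated at 0.0766 to 0.275 between Yg WT and O (YgWT), with not every pair above 0.1, so the numbers were not used to pair samples. The mean was 0.202 there, 0.0506 between Yg Het and O (Yg Het), and from -0.14 to 0.058 between all other groups. Over all groups, 3 of 25 libraries were closest to their own number. Yg WT and O (YgWT) come from the same kind of pair, and the limma model without the block took their livers as independent.

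The count of members called in O (Yg Het) against O (YgWT) was 0 after median-of-ratios scaling, over all or over tested genes, and 0 to 2 in omissions. In O (Yg Het) against O-O it was 2 with only the groups compared and 0 to 2 in omissions. In O-O against Yg WT it was 1 to 4 and in the interaction 0 to 2 in omissions. Of 45 results of related genes, 11 were called in every alternative and 25 were lost after scaling; Rbx1 and Txn1 in O (Yg Het) against O-O turned from -0.20 and -0.19 to 0.01 and 0.03. The causes were not tested.

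Counts over all genes moved by over 1.5 times, in the order scaling, scaling over tested genes, no filter, 5 RPKM, only the groups compared and block, with unlisted settings within that. O (YgWT) against O-O had 110 (174, 175 and 48 for the first 3). O (Yg Het) against O-O had 2211 (1159, 935, 3402, 816 and 1415). O (Yg Het) against O (YgWT) had 3065 (1887 and 1730 with scaling, 1444 at 5 RPKM). Yg Het against Yg WT had 481 (279 with no filter, 173 with only these groups). O-O against Yg WT had 1017 (527 at 5 RPKM, 473 with only these groups). O (YgWT) against Yg WT had 11 (5 with scaling over tested genes, 41, 7, 4 and 7). O (Yg Het) against Yg Het had 520, 85 higher and 435 lower (103, 88 higher and 15 lower, with scaling; then 101, 232 with no filter, 99 with only these groups and 188 with the block). The interaction had 1 (0, 0, 6 with no filter, 0 and 3). In omissions these counts ran, in the same order, from 12 to 231, 1217 to 2795, 1958 to 3484, 140 to 839, 401 to 1325, 4 to 28, 18 to 1508 and 0 to 1231. Depth limits Gsta1 most, with 6 to 157 reads.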
